A study of Sparus aurata with 16 samples.

Results

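Of the 25225 sequences measured on a custom oligonucleotide array of gilthead sea bream (Sparus aurata), 93 gave a lower signal in the liver of all starved fish than in the liver of any fed fish, with little difference in the white skeletal muscle. The 93 sequences were chosen by these same signals, so the liver difference between starved and fed fish is given below as a description, with no test. For each sequence and fish, the log2 processed signals of the scanner software were averaged, and the mean of the 12 fed fish was subtracted from the mean of the 4 starved fish. A liver difference at or under -1.5 was found for 395 sequences. All starved fish lay below all fed fish for 241 of them, and 231 of these also had a spot well above background in each fed liver. A muscle difference smaller than 0.5 in either direction then left the 93 sequences, while 61 of the 231 had a muscle difference at or under -0.5 and 77 one at or over 0.5.

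The liver of fish takes up absorbed nutrients, stores glycogen and lipid, and converts surplus carbohydrate and amino acid carbon into fatty acids. During a long fast the synthetic pathways of the liver are generally turned down and reserves are mobilised, whereas white skeletal muscle makes up most of the body mass and serves as a protein reserve. Among the 93, a single sequence carried a gene symbol, ACC1tv2, transcript variant 2 of acetyl-CoA carboxylase 1. This cytosolic enzyme carboxylates acetyl-CoA to malonyl-CoA, the committed step of fatty acid synthesis. The remaining sequences were named here by their assembly identifiers, with no role given: 71 were isotigs, that is, transcripts assembled from pyrosequencing reads, and 21 were single reads (identifiers starting with IFXJFUR). Isotigs made up 76.3% of the set and 77.3% of the array, and single reads 22.6% and 22.4%.

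Juvenile fish were kept in aquaria for 23 days and either starved or given 1 of 3 diets each day at 25 g/kg body weight. The diets were HLL, rich in protein and low in lipids and carbohydrates, MHL, with medium protein, much lipid and little carbohydrate, and LLH, in which carbohydrates were high and both protein and lipids low. RNA of 4 fish per group was hybridised for each tissue, with 1 fish labelled with Cy5 and a fish of another group labelled with Cy3 on each of 8 arrays per tissue. The tank of each fish is not given in the sources used here, so an effect of diet and one of tank cannot be told apart.

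Each tissue had its own slide of 8 arrays, and an effect of the slide cannot be separated from one of the tissue. For the Cy5 fish of liver array D, the title names HLL and the source name LLH. It was taken as HLL fish 1, which has no bearing on the choice of the 93 sequences, since all fed fish enter it alike. The share of spots that the scanner software set well above background ran from 57.9 to 66.6% over the liver channels and from 56.0 to 65.3% over the muscle channels. The number of arrays limits the precision. In bulk tissue, fewer cells of a type and less RNA per cell cannot be told apart. Marker genes of hepatocytes, exocrine pancreas, blood and muscle could not be checked, because among all identifiers of the array only 8 were gene symbols.

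The processed signals were not centred between fish. Over all 25225 sequences starved fish differed from fed fish by a median of 0.24 (log2) in liver and 0.52 in muscle. A muscle difference near 0 on that scale was thus lower than that of a typical sequence. All values below are therefore log2 intensities after background correction and normalisation within and between arrays, where the median over all sequences was -0.00 for liver and 0.00 for muscle. On this scale the liver difference of the 93 sequences had a median of -2.03, or 4.09-fold lower in starved fish, and ranged from -6.65 to -0.50. It was at or under -1.5 for 72 of them, against 1.2% of all sequences, at or under -2 (4-fold) for 52, at or under -3 (8-fold) for 18 and at or under -4 (16-fold) for 6. All 4 starved fish stayed below all 12 fed fish for 92 of the 93, against 5.79% of the array, but this pattern was part of the choice and nothing is read from it. The exception was the read IFXJFUR01DPP7N, with a highest starved value of 6.85 and a lowest fed value of 6.84.

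In muscle, the normalised difference of the 93 sequences had a median of -0.19 and ranged from -0.95 to 0.01. It was within 0.5 for 72 sequences and at or under -0.5 for the other 21, and 91 of the 93 lay below 0. The choice kept processed muscle differences under 0.5, and the median of all sequences was 0.52. Lower values after normalisation thus follow largely from the choice, and nothing is read from this direction. Every starved fish was below every fed fish in muscle for 13 of the 93 sequences, against 8.6% of the array, with differences from -0.95 to -0.44. For these 13 sequences the low signal in starved fish was not restricted to the liver once the intensities were normalised. Their number is not read as a result, since the muscle signals entered the choice. The description as a liver-only set holds for the processed scale of the choice. The neighbouring sets were shifted in the same way. The 61 sequences with a muscle difference at or under -0.5 had a normalised muscle median of -1.07, and the 77 at or over 0.5 one of 0.17, while their liver medians were -2.13 and -1.83.

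**Figure D1:**
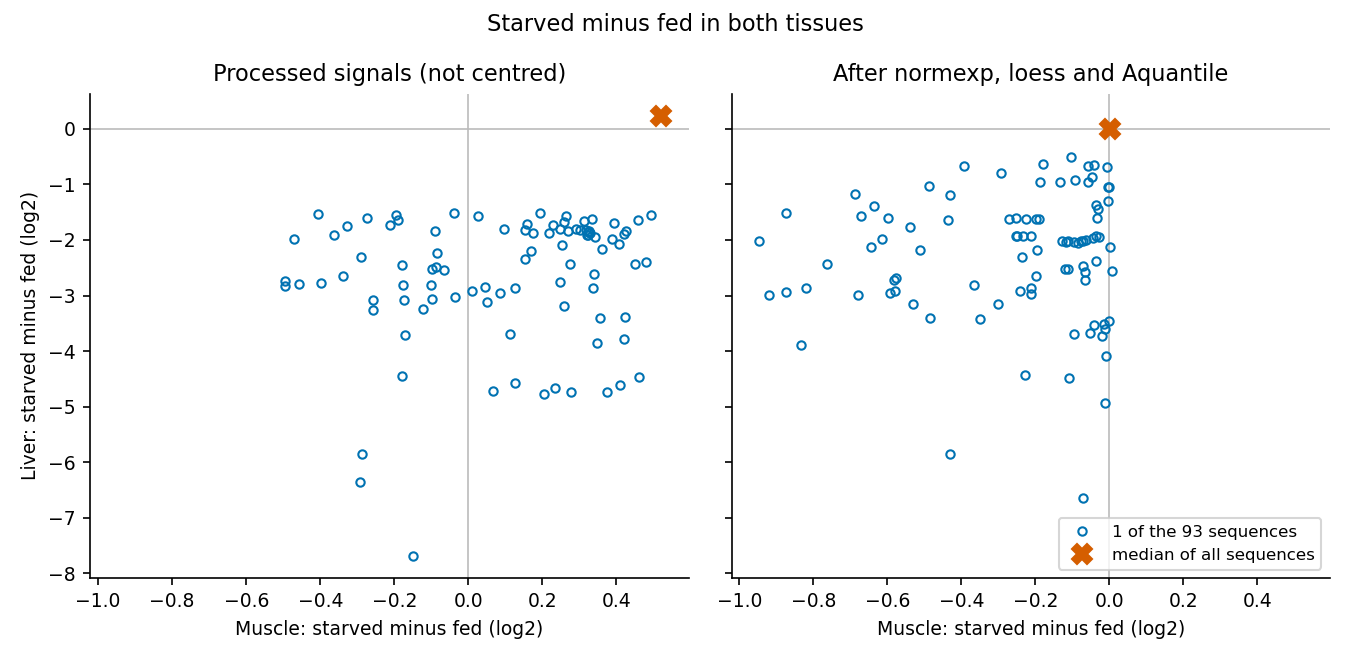
Starved minus fed (log2) in the muscle (horizontal axis) and the liver (vertical axis) for each of the 93 sequences (circles), on the processed signals that chose them (left) and after normalisation (right). The cross marks the median over all sequences, at 0.52 and 0.24 on the left and at the origin on the right, where 91 of the 93 circles lie left of 0 in muscle. By the choice, all circles in the left panel lie left of the cross, so nothing is read from this direction.

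Detection in muscle was not part of the choice. Of the 93 sequences, 60 were well above background in all 16 muscle samples (64.5%), 22 in 1 to 15 of them and 11 in none (11.8%). Among the 15202 sequences well above background in all fed livers, 83.2% were so in all muscle samples and 2.84% in none. The lower share was not particular to the 93. Of the 77 neighbouring sequences with a muscle difference at or over 0.5, 66.2% were so in all muscle samples and 11 in none. Of the 61 at or under -0.5, it was 78.7% and 0. For the 11 sequences that were not well above background in muscle, which include ACC1tv2 and 3 isotigs of a run described below, the muscle difference has no measured level behind it. In starved liver, 84 of the 93 were still well above background in all 4 fish, 8 in 1 to 3 fish, and only ACC1tv2 in none.

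**Figure D2:**
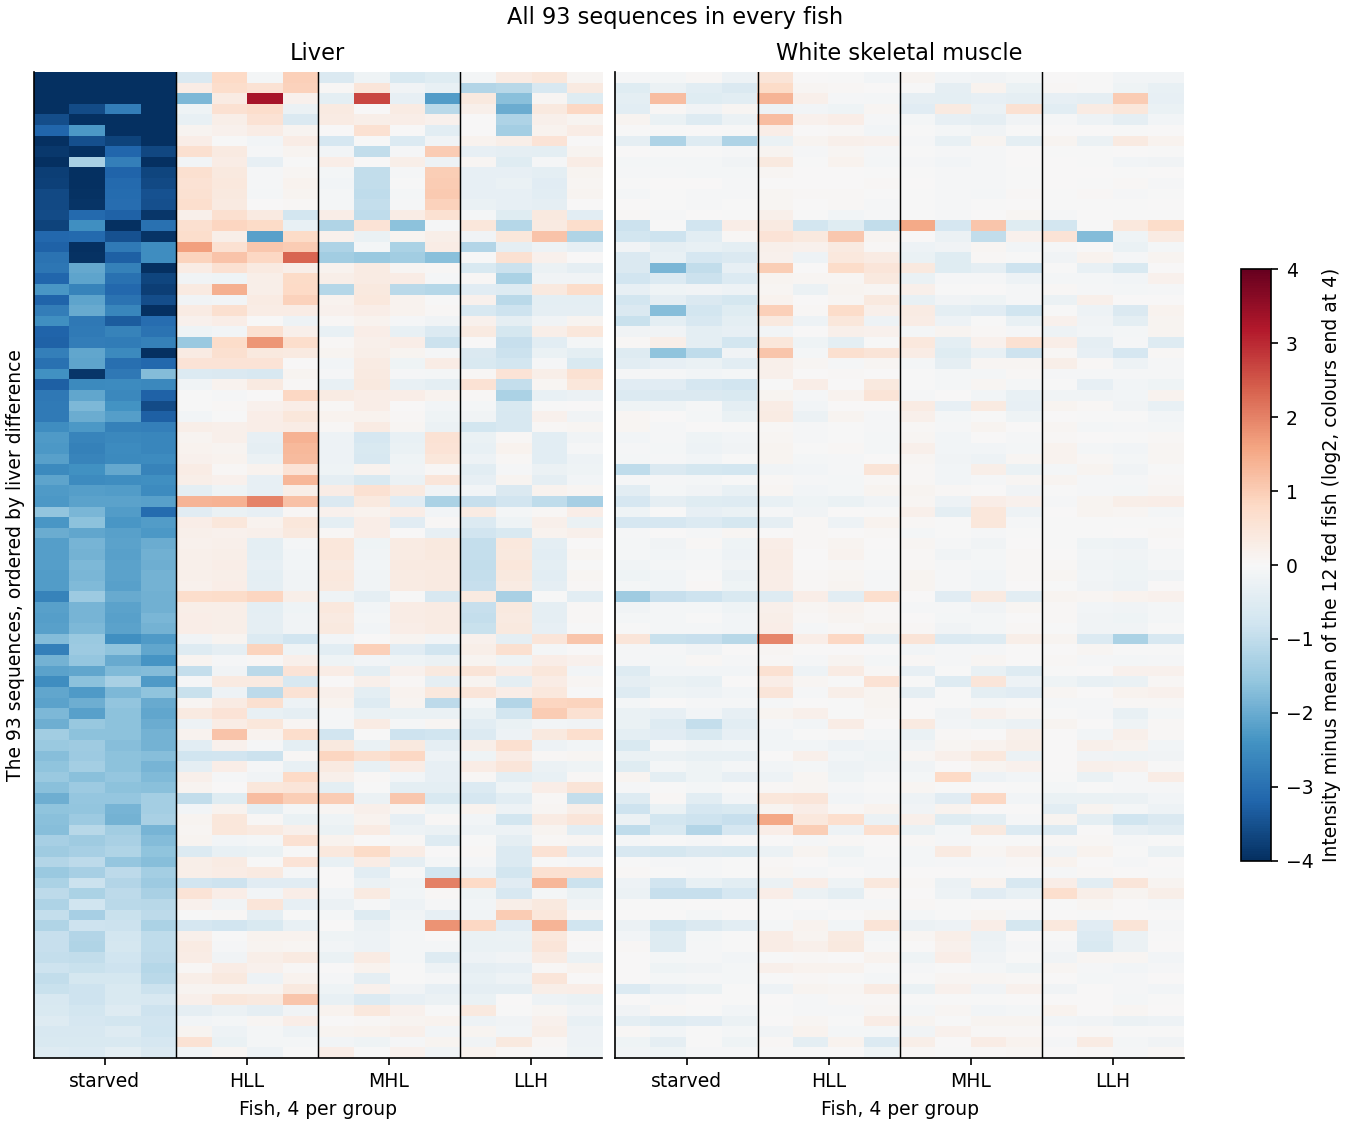
Intensity of each of the 93 sequences in every fish relative to the mean of the 12 fed fish of the tissue (log2, colours end at 4 in both directions), ordered by the liver difference. The 4 starved livers on the left are blue throughout, from dark to pale (differences of -6.65 to -0.50), and the fed livers vary around 0. The muscle columns are mostly pale, with differences of -0.95 to 0.01 in starved fish, so that the weakest liver rows are no darker than the strongest muscle rows.

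The sequence with the largest liver difference was isotig04185. Its liver intensity was 6.28, 6.08, 6.90 and 6.67 in starved fish 1 to 4, and in fed fish it ran from 12.51 over a median of 13.06 to 14.08. No value lay between these groups, and the mean was 100.5-fold lower in starved fish (difference -6.65, SD 0.37 among 4 starved and 0.54 among 12 fed fish). On the processed signals its difference was -7.69. In muscle it was well above background in 3 of the 12 fed fish and in none of the starved fish, with means of 6.18 ± 0.10 (SD, n = 4) and 6.26 ± 0.18 (SD, n = 12).

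The starved livers gave 9.04, 9.45, 7.75 and 7.98 for isotig05622, and the fed livers 13.22 to 15.32 (median 14.59). It was 57.6-fold lower in starved fish (difference -5.85). In contrast to isotig04185 it was well above background in all muscle samples, at 6.85 ± 0.15 in starved and 7.28 ± 0.29 in fed fish. Within the fed livers the means were 15.03 ± 0.25 with HLL, 14.42 ± 0.34 with MHL and 13.76 ± 0.71 with LLH (SD, n = 4 fish each), an order that did not pass the test in any of the diet comparisons given below.

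For isotig19254 the starved livers were close together, at 6.23, 6.40, 6.85 and 6.12. At such dim values background correction with an offset shrinks differences, and the processed-signal difference was -6.35. The fed livers spread from 9.08 to 14.64 (median 11.19), and the mean was 30.5-fold lower in starved fish. The 2 highest fed values were 14.64 in HLL fish 3 and 14.01 in MHL fish 2, and its SD within diets of 1.77 was the largest among the 93 sequences. With isotig06523 the spread lay on the other side, since the starved livers gave 8.61, 9.46, 6.90 and 5.81 and the fed livers 10.41 to 12.39 (median 11.89). It was well above background in only 3 of the starved livers. Its lowest fed value, in LLH fish 2, stood apart from the other fed fish, which were all at 11.36 or above.

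Further values with a wide range in starved fish came from isotig02763, whose starved livers gave 7.75, 10.32, 11.13 and 8.41. The fed livers ran from 11.89 to 14.73 (median 14.16), so that the gap between the groups was small although the mean was 22.5-fold lower. The read IFXJFUR02F2IDQ was at 6.80, 6.84, 6.46 and 6.04 in starved and at 7.76 to 11.10 (median 10.14) in fed livers. This read had 1 probe and was well above background in only 3 of the starved livers. It differed from most of the leading sequences in muscle, where it was well above background in all samples, at 10.12 ± 0.38 in starved and 10.61 ± 0.75 in fed fish.

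Of the 5 sequences with the highest signal in fed liver, isotig05622 and isotig02763 are given above. The others were isotig17948, the read IFXJFUR02G1E01 and isotig18044. In starved livers isotig17948 gave 13.70, 14.95, 12.83 and 14.40, and in fed livers 15.76 to 18.26 (median 17.80), a difference of -3.42. It was well above background in all starved fish. So was IFXJFUR02G1E01, with 12.98, 13.23, 12.28 and 12.45 in starved and 13.94 to 15.82 (median 14.68) in fed livers, 3.94-fold lower. All starved fish were below all fed fish for both. For isotig18044 the values were 10.26, 9.26, 9.24 and 8.68 in starved and 12.57 to 14.37 (median 13.98) in fed livers, 21.7-fold lower, with LLH fish 2 again the lowest fed fish.

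**Figure D3:**
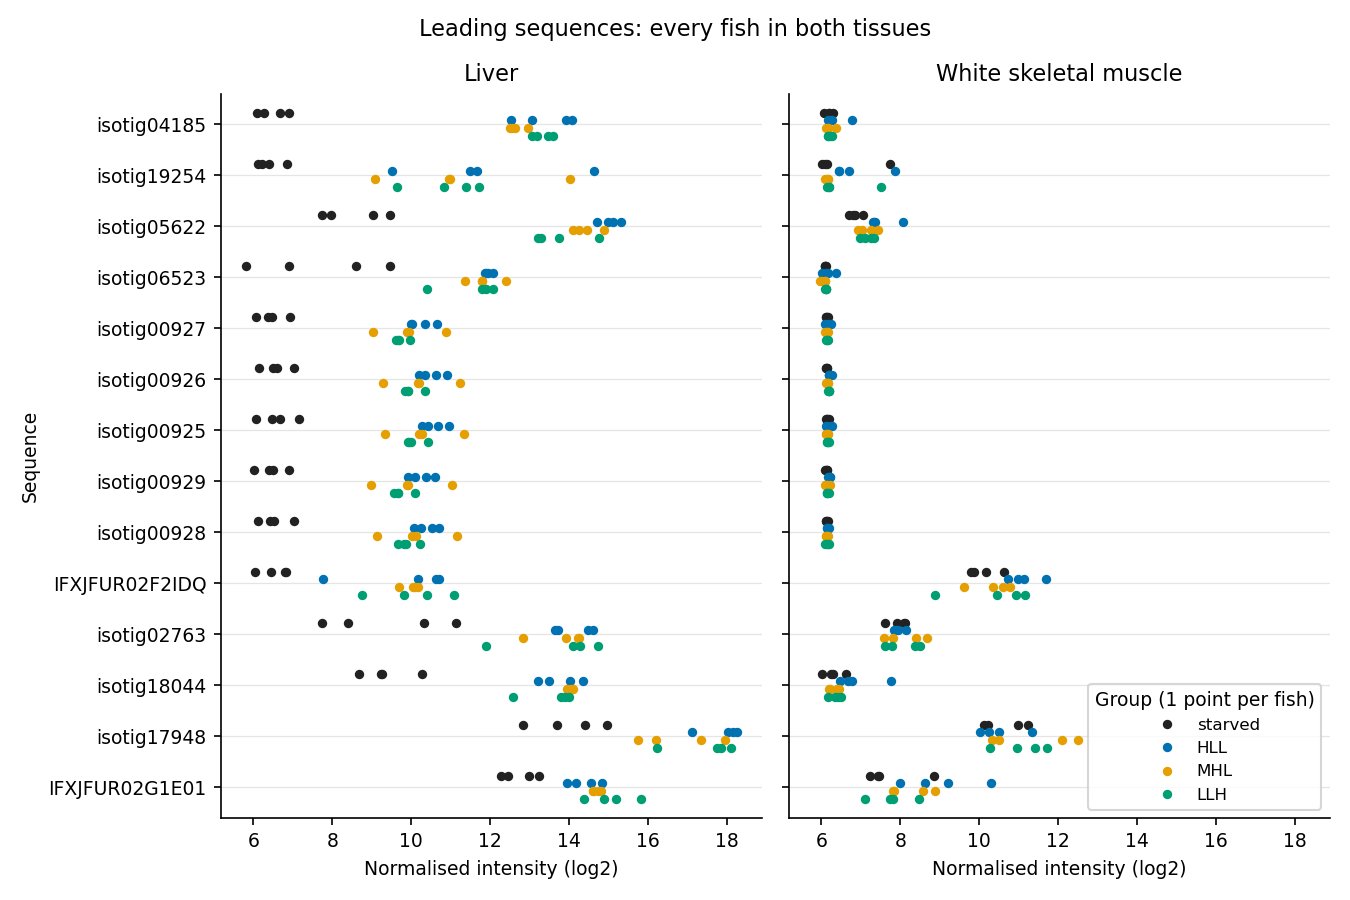
Normalised intensity (log2, horizontal axis) of the 10 sequences with the lowest processed-signal difference and the 5 with the highest signal in fed liver (14 in all, since isotig05622 is in both), with 1 point per fish coloured by group, in liver (left) and muscle (right). In liver the starved fish lie left of all fed fish for each sequence. In muscle starved and fed fish overlap for each sequence, with the lowest difference at -0.61 for IFXJFUR02G1E01. The values there are near 6 for the isotigs that were not well above background in muscle.

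A part of the set consisted of near copies. There were 7 runs of consecutive isotig numbers, not all of them alike, which held 25 of the 93 sequences. With each run counted once 75 sequences remained. The longest runs were isotig00694 to isotig00701 (8 sequences), isotig00925 to isotig00929 (5) and isotig01709 to isotig01712 (4). Within these 3 runs the deviations from the diet means over the 12 fed livers had correlations of at least 0.987 between any pair, and any 2 sequences differed by no more than 0.25, 0.46 and 0.24 (log2) in any sample of either tissue. The median correlation over all 4278 pairs of the 93 sequences was 0.09. These correlations are descriptions over fish that share arrays and diets. The sequences of a run may stem from the same gene and were not counted as independent genes, so the counts for the diets are also given with each run counted once, while the other counts are over all 93.

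The run from isotig00925 to isotig00929 supplied 5 of the 10 largest processed-signal differences. In the liver, isotig00927 gave 6.36, 6.06, 6.94 and 6.48 in starved and 9.04 to 10.89 (median 9.96) in fed fish, and the differences over the run went from -3.73 to -3.52. Its lowest fed fish was MHL fish 2 and its highest MHL fish 4, as for the other isotigs of the run. In muscle, isotig00925, isotig00926 and isotig00927 were well above background in no sample. The run from isotig00694 to isotig00701 was at a mean of 10.80 in starved and 12.82 in fed livers, with a difference of -2.02 for isotig00694, and LLH fish 1 was the lowest fed fish, at 11.86 for isotig00694. It was well above background in all muscle samples. For isotig01709 to isotig01712 the differences were -2.53 to -2.39, and HLL fish 4 was the highest fed fish, at 10.87 for isotig01709. The pair isotig05168 and isotig05169 was the least alike, with a correlation of 0.73 and differences of -1.39 and -2.31, but was also counted once as a run.

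**Figure D4:**
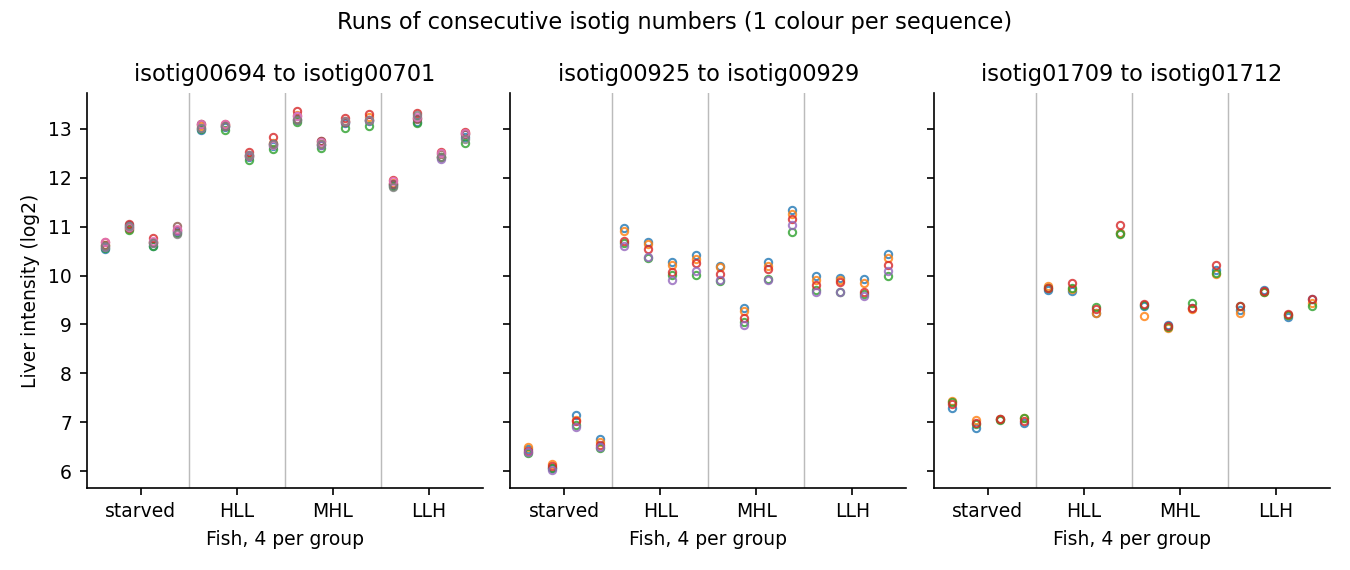
Liver intensity (log2) of the sequences in the 3 longest runs of consecutive isotig numbers, in each of the 16 fish ordered by group, with 1 colour per sequence. The points of a run nearly coincide in every fish, and each run has its own order among the fed fish, with LLH fish 1 lowest on the left, MHL fish 2 lowest in the middle and HLL fish 4 highest on the right.

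Outside the runs, 9 further pairs formed by 12 sequences had a correlation of at least 0.95. These pairs were not merged when each run was counted once. The closest was that of the reads IFXJFUR01DPP7N and IFXJFUR01C8TS1, with 0.99. These reads stood apart from the other 91 sequences in tissue distribution, since their processed signal was higher in fed muscle than in fed liver by more than 5 (log2), at 18.42 against 7.26 and at 18.72 against 7.18. In the liver, IFXJFUR01C8TS1 gave 6.31, 6.69, 6.64 and 6.24 in starved and 6.70 to 9.30 (median 7.24) in fed fish, and the 3 highest fed values, 9.30 in MHL fish 4, 8.85 in LLH fish 3 and 8.32 in LLH fish 1, were also those of IFXJFUR01DPP7N. On the whole array 1318 sequences exceeded that gap between tissues, with a median processed-signal difference in liver of 0.13, and 40 of them were at or under -1.5. Whether muscle tissue in single liver samples had a part in these values was not tested. In all, 13 of the 93 sequences had a higher processed signal in fed muscle than in fed liver. Besides the pair above, isotig07427 was one of them, with 17.49 in muscle against 13.87 in liver, and was 14.8-fold lower in starved liver and at -0.83 in starved muscle.

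Most sequences were measured by 2 probes (83 of 93), and both probes were lower in starved liver for all 83. Both probes showed no overlap between starved and fed fish for 78, and they agreed within 0.5 (log2) for 59. The signals of both probes entered the choice of the sequences, and no share over the array was computed for single probes. Nothing is therefore read from the direction or the lack of overlap. For 13 sequences the probes were more than 1 apart, among them the 8 isotigs of the run isotig00694 to isotig00701 with about -2.7 and -1.4. The widest gap was that of the read IFXJFUR02F3I4E, with -4.67 and -0.44, followed by isotig06385, with -4.12 and -0.25.

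At the border of the choice, the sequences just inside a processed-signal difference of -1.5 were IFXJFUR02H96RX (-1.52), isotig17082 (-1.52) and IFXJFUR01DVS2J (-1.53), and those just outside were isotig06896 (-1.49), isotig06789 (-1.49) and isotig04379 (-1.48). After normalisation the first 3 were at -1.62, -0.67 and -0.80. The liver intensity of isotig17082 was 6.56, 6.43, 6.36 and 6.32 in starved and 6.78 to 7.36 (median 7.11) in fed fish. It was a dim sequence, for which background correction with an offset shrinks differences.

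Liver intensities of the 93 sequences varied more between fish on the same diet than those of other sequences. The median SD within diets was 0.39 for the 93 and 0.17 for the 15202 sequences well above background in all fed livers, and 89 of the 93 were above the latter value. These sets were not matched for intensity, so the wider spread is not read as a property of the 93. In starved fish the medians were 0.24 and 0.16. The SD was wider in fed than in starved fish for 62 of the 93 sequences, against 51.6% of the 15202. By the choice, the starved livers were the dimmer ones for the 93, and background correction with an offset shrinks differences between dim values. One such case was isotig13410, with a mean of 6.08 and an SD of 0.11 in starved livers. The part of this in the counts was not tested. In fed muscle, the sequences of the set that were well above background in all samples had a median SD of 0.19, against 0.17 for all such sequences.

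Among the starved livers, fish 4 gave the lowest value for 44 of the 93 sequences and fish 2 the highest for 40. The median difference from the fed mean was -2.22, -1.86, -2.15 and -2.08 in starved fish 1 to 4. The choice of the sequences fixed the direction of these medians, so nothing is read from it. Among the fed livers, LLH fish 2 was the lowest for 27 of the 93 sequences and LLH fish 1 for 17, and HLL fish 4 was the highest for 23. The median deviation from the fed mean was -0.31 in LLH fish 2 and -0.15 in LLH fish 1, and lay between -0.07 and 0.22 in the other fed fish.

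The diets were compared by limma, with P values adjusted by Benjamini-Hochberg over all sequences (two-sided, n = 4 fish per group). This contrast was not used to choose the 93 sequences, since the rule treats the 12 fed fish alike. In liver, 4 of the 93 were significantly lower with LLH than with HLL and none higher (4.3%, against 2.19% of all sequences in either direction). With MHL, 4 were lower and 1 higher than with HLL (5.38%, against 1.57%), and between LLH and MHL there were none (against 0.00396%, 1 sequence). In muscle there were none in any comparison, against 0.238% of all sequences for LLH and HLL, 0.0159% for MHL and HLL, and 0% for LLH and MHL. At an unadjusted P value under 0.05 the numbers of the 93 in liver were 26, 20 and 14, in the same order of comparisons, against 15%, 15.6% and 8.99% of all sequences. In muscle they were 27, 29 and 5, against 11.7%, 10.3% and 6.18%. With each run counted once they were 25, 19 and 12 of 75 in liver and 19, 23 and 4 in muscle. Without 1 fish the muscle numbers of the 93 ran from 16 to 28 for LLH and from 15 to 31 for MHL against HLL. Without HLL fish 1 they were 17 and 15. In muscle, 19 of the 93 were well above background in fewer than 4 samples, and no excess is read from the muscle shares. The liver shares of all sequences include sequences not well above background, whereas all 93 were so in each fed liver by the choice. With only probes well above background in at least 4 channels, 604 of 18456 sequences were called for LLH and 361 for MHL against HLL. Among the 93 the calls stayed at 4 and 5. No excess of the 93 over the array is therefore read from the liver shares. The counts of calls among the 93 were small and depended on the fit. When log ratios were fitted instead of single channels, neither liver comparison with HLL gave a call among the 93, and the calls over all sequences went from 553 to 3 for LLH and from 395 to 2 for MHL. With the authors' log2 ratios each gave 1, of 2 and 5 over all sequences. With the doubtful fish of array D taken as LLH, the counts were 0 for LLH and 2 for MHL against HLL, and without that fish 2 and 3. Without LLH fish 1 a single sequence was called between LLH and HLL, and without starved fish 4 there were 8. In muscle, calls appeared among the 93 in 3 alternatives. Without normalisation between arrays there were 10, 12 and 3, with 1394, 930 and 296 over all sequences. With the fish number as a block there were 5 between LLH and HLL, of 436, and with the brightest probe 1, of 46.

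Without regard to significance, 69 of the 93 sequences had a lower mean with LLH than with HLL in the liver (median -0.21), against 49.5% of the array (median 0.00). With MHL it was 60 of 93 (median -0.18), against 49.9% of the array, and between LLH and MHL 57 of 93 (median -0.09), against 50.1%. With each run counted once, 54, 52 and 44 of 75 were lower. Without LLH fish 2, the numbers were 61 of 93 (median -0.16) against HLL and 50 of 93 (median -0.03) against MHL. For MHL against HLL, leaving out 1 fish gave 53 to 63 of the 93. In muscle 69 and 71 of the 93 were lower with LLH and MHL than with HLL, against 47.6% and 49.0% of the array. The medians were -0.06 and -0.08, and with each run counted once 55 and 56 of 75 were lower. Without 1 fish, 61 to 70 and 65 to 74 of the 93 were lower. Without HLL fish 1 the medians were -0.03 and -0.06. Sequences not well above background in muscle enter these counts. The liver shares of the array also include sequences not well above background. No excess of the 93 over the array is read from the counts in either tissue.

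The sequence with the largest liver change between LLH and HLL was isotig06385. Its intensities were 10.01, 10.05, 10.65 and 9.84 with HLL, 8.08, 9.04, 8.22 and 7.39 with MHL, and 7.73, 7.89, 7.64 and 7.33 with LLH, and the starved livers were at 6.37, 6.52, 6.52 and 6.49. All HLL fish were above all MHL and LLH fish, which overlapped with each other. The difference was -2.56 ± 0.26 (SE; limma, adjusted P = 0.0018) for LLH and -2.02 ± 0.25 (adjusted P = 0.0060) for MHL against HLL. Its probes did not agree, as one ran only from 5.89 to 6.79 over all fish while the other was at means of 13.71 with HLL, 10.30 with MHL, 9.30 with LLH and 6.98 in starved fish. Over 13 other ways to process or fit the data, the difference between LLH and HLL ran from -4.54 to -2.26. Both calls held under 11 of these and without any 1 of the 16 fish. In muscle, isotig06385 was at 7.39 ± 0.07 with HLL, 7.68 ± 0.20 with MHL and 7.74 ± 0.15 with LLH, which did not pass the test (adjusted P = 0.24 for LLH and 0.33 for MHL against HLL).

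The largest change with MHL was that of isotig11380. It gave 12.85, 13.09, 12.78 and 14.29 with HLL, 10.57, 10.49, 10.58 and 10.30 with MHL, and 11.93, 12.58, 12.12 and 11.97 with LLH. The diets did not overlap, and the starved livers, at 9.02, 8.02, 8.69 and 9.49, were below them all. The difference between MHL and HLL was -2.83 ± 0.30 (adjusted P = 0.0032), and the call held under 11 of 13 alternatives and without any 1 of the 16 fish. Those of LLH against HLL (-1.16 ± 0.32, adjusted P = 0.082) and against MHL (1.67 ± 0.30, adjusted P = 0.17) did not pass the test.

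The acetyl-CoA carboxylase variant ACC1tv2 was at 6.93, 7.18, 7.12 and 7.85 with HLL, 6.45, 6.20, 6.42 and 6.52 with MHL, and 6.47, 6.75, 6.54 and 6.48 with LLH. Starved livers gave 6.11, 5.91, 6.15 and 6.10, none of them well above background. With its level there only bounded from above, the fed mean was at least 1.60-fold higher than in starved fish. All HLL fish were above all fish on the other diets, by -0.89 ± 0.13 for MHL (adjusted P = 0.0093) and -0.71 ± 0.13 for LLH (adjusted P = 0.020) against HLL. These calls held under 11 and 10 of 13 alternatives and without any fish but 1 of the 16 in each case. Over the 13 alternatives the difference ran from -2.445 to -0.84 for MHL and from -1.62 to -0.68 for LLH against HLL, so its size depended on the processing of this dim sequence. Between LLH and MHL the difference was 0.19 ± 0.13 (adjusted P = 0.75). In muscle ACC1tv2 was well above background in no sample.

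The 8 sequences with a gene symbol all stood for enzymes of fatty acid, pyruvate or alanine metabolism. In liver, 4 were lower with LLH than with HLL and 2 with MHL, against calls for 2.19% and 1.57% of all sequences. None was called in muscle. ACC1tv1, the other variant of the enzyme, was called lower with LLH (adjusted P = 0.014) and with MHL (adjusted P = 0.0061). It was well above background in all 4 HLL livers, in 1 LLH liver and in none with MHL or in starved fish. Its mean was thus at least 1.35-fold higher with HLL than with MHL, and no size is given for LLH, where 1 fish measured it. The cytosolic alanine aminotransferases cALT1 and cALT2, which exchange amino groups between alanine and glutamate, were lower with LLH (-0.99 ± 0.23 and -1.01 ± 0.24, adjusted P = 0.042 and 0.046), while with MHL they missed the threshold (-0.82 and -0.83, adjusted P = 0.086 and 0.091). Their values were nearly the same in every fish, so that they may not be separate measurements. None of these 3 met the rule for starvation, with processed-signal differences of -1.06, -0.98 and -0.99 in liver. Neither did ACC2, PKL, PKM (acetyl-CoA carboxylase 2 and 2 pyruvate kinases) or the mitochondrial form mALT. For ACC1tv1, cALT1 and cALT2 no alternatives are given here. Between LLH and HLL only 3 sequences of the array were called with log ratios and 1 with array D as LLH. At most 1 of the 4 calls could therefore hold with array D as LLH.

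The remaining calls were less firm. The intensity of isotig07303 was 13.57, 12.55, 12.99 and 12.92 with HLL, 10.68, 11.85, 10.66 and 12.23 with MHL, 10.74, 11.57, 11.72 and 11.61 with LLH, and 8.70, 7.83, 9.09 and 9.43 in starved fish. It was lower than with HLL by about the same amount with LLH (-1.67 ± 0.38, adjusted P = 0.042) and MHL (-1.66 ± 0.37, adjusted P = 0.044). Each call held under 5 of 13 alternatives, and without 1 fish it held for 3 and 5 of the 16 fish. With isotig09597 only LLH differed from HLL (-0.87 ± 0.19, adjusted P = 0.032), with 11.86, 11.74, 12.44 and 11.87 against 13.02, 13.02, 13.03 and 12.48, so that all HLL fish were above all LLH fish. This call held under 7 alternatives and without 9 of the 16 fish. The only sequence higher than with HLL was isotig03868, with 9.02, 8.78, 8.98 and 7.94 with MHL against 7.35, 7.39, 7.30 and 8.20 with HLL (1.09 ± 0.21, adjusted P = 0.031). One fish of each diet overlapped with the other diet, and the call held under 8 alternatives and without 11 of the 16 fish.

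**Figure D5:**
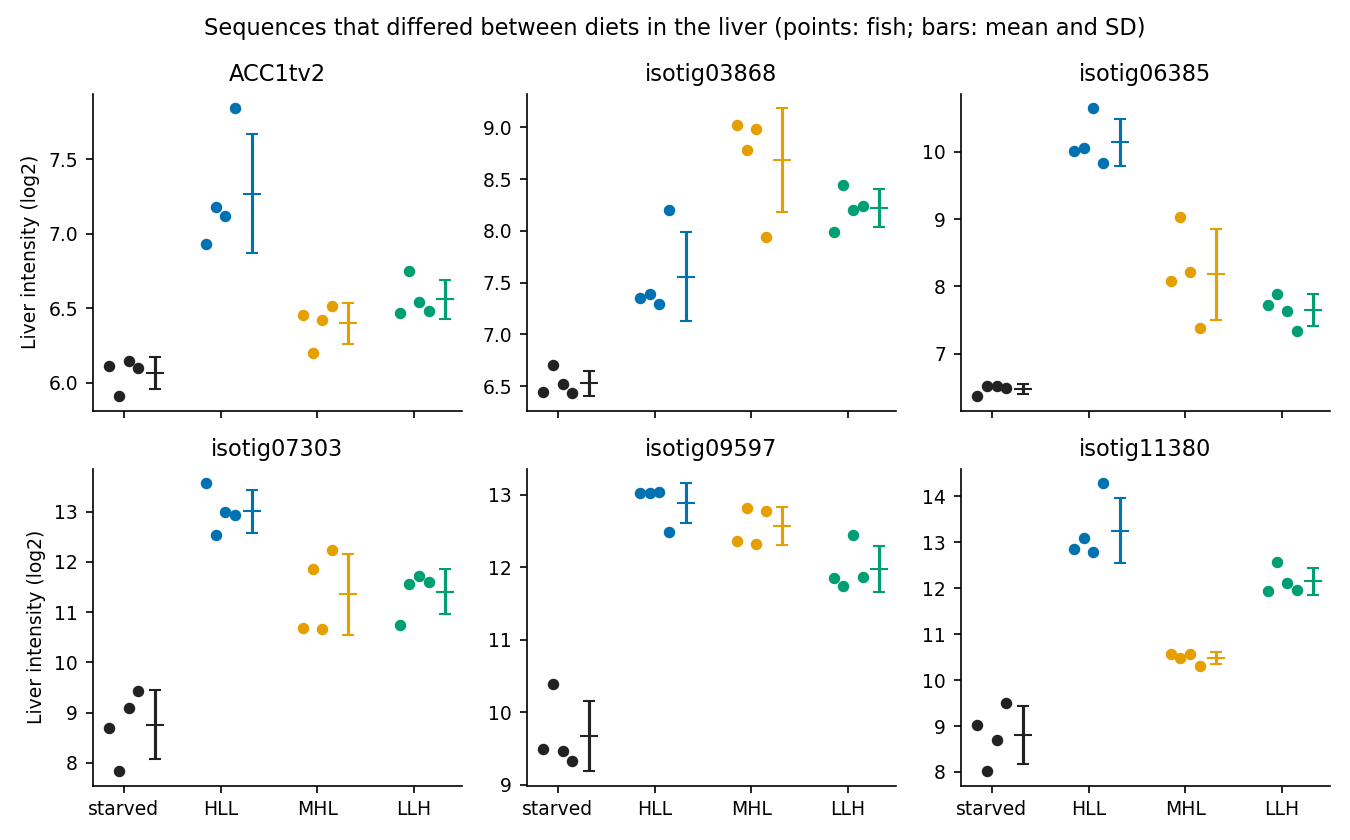
Liver intensity (log2) of the 6 sequences that differed between diets, with 1 point per fish and the mean and SD of 4 fish beside them; the vertical axes differ and do not start at 0. HLL fish lie above the MHL and LLH fish for ACC1tv2, isotig06385, isotig07303 and isotig11380, and starved fish lie lowest in each panel.

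Whether a diet difference was of the same size in both tissues was tested in a fit over all 16 arrays, for which no alternatives were run. This fit took liver and muscle samples as separate fish, and which of them share a fish is not known here. For LLH against HLL, 2 of the 93 sequences had a significantly different change in liver than in muscle (against 1.33% of all sequences), and for MHL against HLL 3 (against 0.983%). The shares of all sequences again include sequences not well above background, and no excess is read from them. The sequences called were isotig06385 and ACC1tv2 in both cases and isotig11380 with MHL, all lower than with HLL in liver. In muscle, isotig06385 was at 0.33 and 0.29 relative to HLL, ACC1tv2 at -0.04 and -0.03, and isotig11380 at -0.37 with MHL, none of which passed the test within muscle. For ACC1tv2 the muscle had no level well above background, so that this difference rests on the liver alone.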

How the data were processed

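RNA of liver and white skeletal muscle from 4 fish per group was hybridised on 16 two-colour arrays, 8 per tissue. The authors deposited, per array, the scanner output of Agilent Feature Extraction 10.7: the median intensity of each spot and its background in both channels and a processed intensity (background-subtracted and dye-normalised). A second deposited table held log2 ratios (Cy5 over Cy3) that the authors had normalised, with column medians of -0.004 to 0.006. Its order was the reverse of the feature numbers (correlation with the scanner ratios at least 0.82 in liver and 0.76 in muscle), its direction is that of the scanner ratios, and its background correction is not given in the sources used here.

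The rule that chose the sequences used the deposited processed intensities on the log2 scale. The sequences, lists and tests were chosen with earlier results of these data known. All other values started from the median intensities in limma 3.58.1 (R 4.3.3, statmod 1.5.0): normexp with an offset of 50, removal of the 1319 control spots of 62976, loess within arrays and Aquantile between arrays. Spots with an outlier mark were left out, and the probes of a sequence were averaged. A linear model of the separate channels' log2 intensities held terms for group and dye, and arrays entered as random blocks (correlation 0.17 in liver and 0.16 in muscle, from 5000 sequences drawn with a fixed seed). Benjamini-Hochberg adjustment ran over 25225 sequences in liver and 25222 in muscle, with a threshold of 0.05. A level not well above background on all arrays of a group was taken as the higher of its own value and the lowest value well above background on that array, and gives an "at least" fold. Tables were computed in Python 3.11.15.

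Named were the 10 sequences with the lowest processed difference in liver, the 3 on each side of -1.5, those called between diets, those with a gene symbol and the 5 with the highest signal in fed liver. A few others were named after their values were seen: IFXJFUR01DPP7N, IFXJFUR01C8TS1, IFXJFUR02F3I4E, isotig07427 and those of runs. On simulated data for LLH against HLL, with 200 of 25225 sequences changed by 1 (log2) in liver, 170 were found with 14 false calls, and 194 with 11 when changed by 2. In muscle, of 25222 sequences, 169 were found with 7 false calls and 192 with 14. Background correction and normalisation were not simulated. These rates are over all sequences, and none was computed for the chosen sequences alone. In fed liver, the median SD within diets was 0.39 for the chosen sequences. It was 0.17 for all sequences well above background in all fed livers. The liver rates are therefore not read as those of the chosen sequences. Planned lists of pathway and marker genes were not used, since apart from 8 symbols the identifiers were not paired with genes here.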

Additional observations from a re-analysis of the deposited data

Results flagged for a closer look

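The diet change differed between liver and muscle, by a test of the difference itself in 1 fit over both tissues (limma, adjusted over all sequences), for 3 sequences. The changes given below for each tissue come from the separate fits per tissue, so they do not subtract exactly to the value tested. For isotig06385 the change in liver minus that in muscle was -2.86 ± 0.28 (SE, adjusted P = 7.5e-06) for LLH against HLL, with -2.56 in liver and 0.33 in muscle, and -2.30 ± 0.27 (adjusted P = 0.00028) for MHL against HLL, with -2.02 and 0.29. For ACC1tv2 it was -0.63 ± 0.14 (adjusted P = 0.021) and -0.86 ± 0.13 (adjusted P = 0.0023), with -0.04 and -0.03 in muscle. This sequence was well above background in no muscle sample, so its difference rests on the liver alone. For isotig11380 it was -2.46 ± 0.33 (adjusted P = 0.00088) for MHL against HLL, with -2.83 in liver and -0.37 in muscle. The authors describe RNA of both tissues from 4 fish per condition, but which samples share a fish is not known here. The fit took every sample as a separate fish. No alternatives were run for this fit. Within liver, none of these diet changes was called when log ratios were fitted. With array D as LLH, those of LLH against HLL were not called, nor was that of isotig06385 for MHL (adjusted P = 0.11). For MHL against HLL, ACC1tv2 and isotig11380 kept their calls there (adjusted P = 0.031 and 0.019). For isotig06385, 1 of the 2 probes ran only from 5.89 to 6.79 over all livers.

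Among the 92 groups of 4 livers of the named sequences, 9 held a fish far from the other 3 (a gap above the critical value of Dixon's test). Chance gives about 1 in 20 groups, and sequences of a run are not independent. HLL fish 4 was far from the others for isotig03868 (8.20 against 7.30 to 7.39), isotig09597 (12.48 against 13.02 to 13.03) and IFXJFUR01DVS2J (7.56 against 7.27 to 7.27). LLH fish 2 was low for isotig06523 (10.41 against 11.80 to 12.07) and isotig18044 (12.57 against 13.81 to 14.00). LLH fish 4 was high for isotig00925 (10.44 against 9.93 to 9.99) and isotig00926 (10.36 against 9.85 to 9.91). LLH fish 1 was low for isotig07303 (10.74 against 11.57 to 11.72), and starved fish 2 was high for isotig09597 (10.38 against 9.33 to 9.49).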

How the results depend on the processing

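The median liver difference of the 93 sequences (-2.03), whose direction the choice of the sequences fixed, was -2.26 with an offset of 0, -2.70 with processed intensities and Aquantile, -2.40 with processed intensities alone, -2.35 with the authors' log2 ratios and -1.81 with median centring within arrays. Without 1 starved fish it was between -2.13 and -1.99. The rule gave 149 sequences (58 of the 93 among them) with each channel centred on its median, 115 (53) on normalised intensities, 64 with the rule required of each probe, and 88 to 118 without 1 starved fish. Calls between LLH and HLL in liver (4) were 0 with log ratios, 0 with array D as LLH, 2 without the dye term, 2 with processed intensities and 1 with the authors' ratios, and 1 to 8 without 1 fish (1 without LLH fish 1, 2 without HLL fish 1, HLL fish 2, MHL fish 1, MHL fish 3 or LLH fish 2, and 8 without starved fish 4). Calls between MHL and HLL in liver (5) were 0 with log ratios, 2 with array D as LLH, 3 with processed intensities and 1 with the authors' ratios, and 2 to 7 without 1 fish (2 without MHL fish 3, 3 without HLL fish 1, HLL fish 2, HLL fish 3 or MHL fish 1). In muscle, where none was called, leaving out normalisation between arrays gave 10 calls (LLH against HLL), 12 (MHL against HLL) and 3 (LLH against MHL), with 1394, 930 and 296 over all sequences, and the brightest probe gave 1 (LLH against HLL). The causes were not tested. Between LLH and MHL in liver, and without any 1 fish in muscle, 0 were called throughout. The fish number as a replicate block gave 3 calls in liver for MHL and 3 for LLH against HLL, and 5 in muscle for LLH against HLL (122, 322 and 436 over all sequences). The deviations of same-numbered fish had a median correlation of 0.00 in liver and 0.05 in muscle. The highest was 0.15 in liver and 0.48 in muscle, and 3 and 5 of 16 fish were closest to their own number. On every liver array both fish had the same number, so fish number and array cannot be told apart there. The liver differences of the 23 named sequences were recomputed 230 times, of which 180 moved by less than the pooled SD between fish of a group and 50 by more (12 with an offset of 0, 14 and 12 with processed intensities with and without Aquantile, and 12 with the authors' ratios). The authors' ratios, processed intensities alone and counting each run once were chosen after seeing the data. Values near background limit dim sequences, whose differences an offset shrinks.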
